A study of Mus musculus with 4 samples.

Results

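Keratins are the intermediate filament proteins of epithelial cells, and their expression was examined here in mouse cells that had been reprogrammed from adult tissue to induced pluripotent stem cells (iPSCs) and then cultured toward an endothelial fate. The family was taken as every probe set whose only gene symbol in the platform annotation was Krt followed by a number and at most 1 letter, without the keratin-associated Krtap and Krtdap genes. This gave 61 of the 45101 probe sets on the arrays, which measured 48 of 18193 genes. Cells derived from 2 mice with diet-induced obesity (DIO) and from 2 healthy control mice were compared, with 1 Affymetrix expression array per mouse, and the arrays are called DIO 1, DIO 2, control 1 and control 2. Per the labels, the mice of both groups were aged 24 weeks, the cells were cultured in a medium for endothelial cells, and trypsin was used to detach them before total RNA was isolated. The strain, the sex, the diet and the method of endothelial differentiation were not given in the sources used here, nor was any sort of the cells. How many iPSC lines were made from each mouse is not stated, and p-values measure the spread between these 4 samples only, part of which may be technical. Values are log2 expression levels, so that a difference of 1 is a 2-fold difference. The cells are called endothelial in the sample titles and iPSC in the cell type entry. The 12 endothelial marker genes averaged 5.97 and 5.92 in DIO 1 and DIO 2, against 6.05 and 6.23 in control 1 and control 2, where the median of the mean levels of all genes was 7.09. Levels of different probe sets compare only roughly, and within the list Esam, Cdh5 and Egfl7 had mean levels of 8.87, 8.76 and 8.70, while the other 9 lay below that median.

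Keratin filaments are built from pairs of an acidic type I and a basic type II chain. Single-layered (simple) epithelia make Krt8 and Krt18, often with Krt7 and Krt19, and Krt8 and Krt18 are also the first keratins of the embryo. Layered (stratified) epithelia such as the epidermis make Krt5 and Krt14 in the dividing basal layer and exchange them for other pairs, such as Krt1 and Krt10 in skin, as the cells move outward and mature. Keratins are not a hallmark of endothelial cells, whose main intermediate filament protein is vimentin.

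Control 2 stood apart by genes outside the family too. Among 18 measured epidermal marker genes that are not keratins, control 2 had the highest value of the 4 arrays for 18 and control 1 the lowest for 15. Over all 18193 genes these counts were 3800 and 3869. The mean level of this list was 7.83 and 8.63 in DIO 1 and DIO 2, against 6.95 in control 1 and 11.12 in control 2. In RNA from whole cultures, more cells of a type and more RNA per cell cannot be told apart. The controls held both ends of the range, so differences are given with all arrays and, for the keratins most affected, also against each control by itself. Of the technical measures, the level of Actb by its 3-prime probe set minus that by its 5-prime probe set, which grows as RNA is shortened, was 0.25 and 0.30 in DIO 1 and DIO 2, against 0.21 and 0.33 in control 1 and control 2. For the bacterial transcripts added as hybridization controls the mean level was 10.69 and 11.19 in the DIO arrays, against 10.91 and 11.15 in the controls. The 18S ribosomal RNA probe sets averaged 12.30 and 11.96 in the DIO arrays, against 12.60 and 12.65 in the controls, so that here both DIO arrays lay below both controls. The part of these measures in the keratin values was not tested.

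The genomic sequences just before the starts of keratin genes are shown to place the simple keratins, which varied little between the arrays, beside the 3 keratins with the widest range among those with a promoter entry. Of the 48 genes, 32 had an entry in the RefSeq promoter table for GRCm38.p6, and Krt13 had 2. Each run below gives the 250 bases before the annotated start, from 5′ to 3′ on the strand of the gene. Capitals mark matches on either strand to the TATA box (TATAAA), the GC box (GGGCGG), the AP-1 motif (TGANTCA) or the AP-2 motif (GCCNNNGGC).
Krt7, chr15:101412153-101412402, + strand: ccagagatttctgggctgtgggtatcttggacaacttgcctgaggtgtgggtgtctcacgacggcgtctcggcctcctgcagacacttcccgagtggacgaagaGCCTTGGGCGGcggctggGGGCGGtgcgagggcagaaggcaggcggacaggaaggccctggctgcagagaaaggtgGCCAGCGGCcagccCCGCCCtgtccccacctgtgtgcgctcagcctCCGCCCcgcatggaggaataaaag
Krt8, chr15:102004343-102004592, - strand: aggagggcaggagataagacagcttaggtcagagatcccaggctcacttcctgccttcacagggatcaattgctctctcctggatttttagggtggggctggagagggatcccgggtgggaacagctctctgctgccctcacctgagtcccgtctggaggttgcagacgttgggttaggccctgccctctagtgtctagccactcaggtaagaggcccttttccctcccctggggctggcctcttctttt
Krt18, chr15:102027966-102028215, + strand: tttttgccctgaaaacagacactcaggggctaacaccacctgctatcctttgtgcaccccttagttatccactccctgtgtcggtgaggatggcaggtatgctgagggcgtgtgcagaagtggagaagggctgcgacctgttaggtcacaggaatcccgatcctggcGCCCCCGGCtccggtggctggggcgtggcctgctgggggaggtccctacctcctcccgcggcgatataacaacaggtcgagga
Krt10, chr11:99389365-99389614, - strand: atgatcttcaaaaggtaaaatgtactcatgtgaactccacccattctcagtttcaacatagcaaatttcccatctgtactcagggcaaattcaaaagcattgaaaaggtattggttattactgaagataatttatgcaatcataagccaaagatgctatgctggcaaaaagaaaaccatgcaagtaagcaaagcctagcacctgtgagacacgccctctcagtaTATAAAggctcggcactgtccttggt
Krt13 upstream start, chr11:100121567-100121816, - strand: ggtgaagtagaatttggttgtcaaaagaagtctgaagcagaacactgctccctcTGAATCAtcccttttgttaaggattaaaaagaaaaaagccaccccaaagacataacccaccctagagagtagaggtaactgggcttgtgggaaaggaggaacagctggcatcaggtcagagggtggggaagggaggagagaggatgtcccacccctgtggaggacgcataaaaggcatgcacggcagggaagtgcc
Krt13 downstream start, chr11:100120578-100120827, - strand: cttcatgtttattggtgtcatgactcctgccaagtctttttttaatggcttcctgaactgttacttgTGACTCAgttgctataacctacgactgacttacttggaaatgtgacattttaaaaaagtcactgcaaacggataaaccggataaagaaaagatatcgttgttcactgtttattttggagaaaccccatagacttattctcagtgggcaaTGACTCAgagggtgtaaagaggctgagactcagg
Krt5, chr15:101712906-101713155, - strand: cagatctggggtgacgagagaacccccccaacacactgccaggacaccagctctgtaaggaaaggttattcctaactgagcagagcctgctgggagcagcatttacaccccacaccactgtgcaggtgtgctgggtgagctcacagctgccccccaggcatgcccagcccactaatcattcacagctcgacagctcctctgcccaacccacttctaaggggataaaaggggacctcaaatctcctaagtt

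The simple keratins Krt7 and Krt18 held AP-2 motifs, and Krt7 also held 4 GC boxes, 1 of which overlapped an AP-2 motif. Both windows of Krt13 held a match to the AP-1 motif as written, TGAATCA in the upstream and TGACTCA in the downstream window. Krt8 and Krt5 held no match, and Krt10 held a TATA box 26 bases before its start. Over all 32851 promoter windows of the same length, 12.4% held a TATA box, 32.7% a GC box, 6.75% an AP-1 motif and 13.7% an AP-2 motif. Among the 33 keratin windows the shares were 48.5% for the TATA box, 6.06% for the GC box, 6.06% for the AP-1 motif and 9.09% for the AP-2 motif. Of the 3 simple windows, 0 held a TATA box, 1 a GC box, 0 an AP-1 motif and 2 an AP-2 motif. Of the 13 stratified windows these counts were 3, 1, 2 and 0, and the 2 with an AP-1 motif were those of Krt13. These matches describe the letters of the windows only.

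The simple keratins were bright and nearly level across the arrays. Krt8, the type II chain of simple epithelia, was at 14 and 14.07 in DIO 1 and DIO 2, against 14.09 and 14 in control 1 and control 2. Its type I partner Krt18 was at 13.89 and 13.86 in the DIO arrays, against 13.91 and 13.71 in the controls. Neither gene separated the groups: the difference, DIO mean minus control mean, was 0.00 ± 0.13 (SE) for Krt8, with a 95% confidence interval from −0.35 to 0.34, and 0.07 ± 0.14 for Krt18, with an interval from −0.31 to 0.45. Krt7, a type II keratin of ducts and other simple epithelia, was at 12.93 and 12.92 in the DIO arrays, against 12.95 and 12.84 in the controls, a difference of 0.03 ± 0.13. The 3 probe sets of Krt8 differed by 0.00, 0.02 and 0.04. Krt8 has a pseudogene in the mouse genome, so its probes may also read similar transcripts.

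Krt19, a small type I keratin that lacks the usual tail, was the exception. It was at 12.56 and 12.81 in DIO 1 and DIO 2, against 13.11 and 13.13 in control 1 and control 2, so that both DIO arrays lay below both controls. The difference was −0.43 ± 0.15, with an interval from −0.83 to −0.03. It did not pass the threshold of 0.05 after adjustment over all genes (limma, adjusted p = 0.728, unadjusted p = 0.04). Against control 1 alone it was −0.42 and against control 2 alone −0.44, as the 2 controls were nearly equal for this gene. Leaving out a DIO array moved it more, to −0.31 without DIO 1 and −0.55 without DIO 2. Genes as bright as these keratins varied little in general: among the 154 genes at least as bright on average as the dimmest of the 4, the median range over the arrays was 0.21 and 1 gene had a range of 1 or more, while the median range of all genes was 0.43. The ranges of Krt8, Krt7 and Krt18 were 0.09, 0.11 and 0.20, and that of Krt19 was 0.56. The highest value in the whole table was 14.56, so the levels of Krt8 and Krt18 lay close to the top of the scale.

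**Figure D1:**
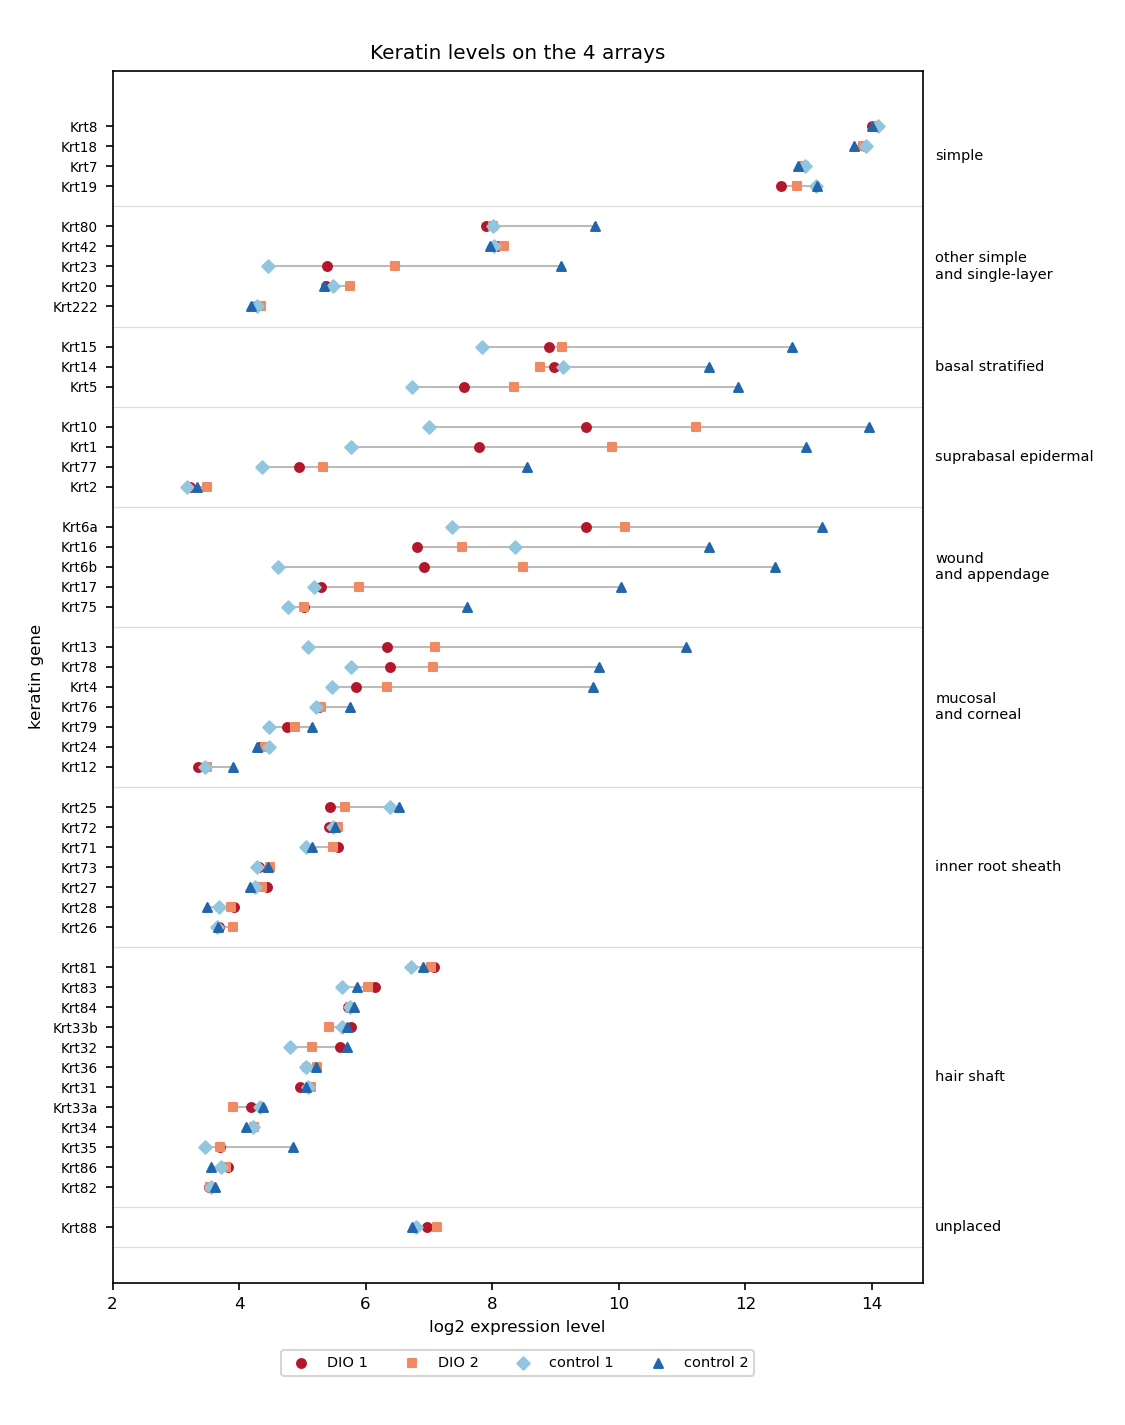
Log2 expression level (x axis) of each of the 48 keratin genes (y axis, by class and then by mean level) on DIO 1, DIO 2, control 1 and control 2. The simple keratins sit together at the right, while most basal, suprabasal and wound keratins spread over several log2 units with control 2 highest.

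The 19 stratified keratins measured, unlike the simple ones, spread widely, and the ends of the spread were mostly the 2 controls. Their mean level was 6.35 and 6.93 in DIO 1 and DIO 2, against 5.70 in control 1 and 9.42 in control 2. For 14 of the 19, control 1 was the lowest and control 2 the highest array with both DIO arrays between them. Over the whole family this held for 17 of 48 genes, and over all genes tested for 7.42%. The range over the arrays was 2 log2 units or more for 14 of the 19, for 15 of all 48 keratins and for 2.42% of all genes. The median range was 4.18 for the stratified keratins and 0.16 for the simple ones. No p-value is given for these lists, since their members were chosen with results of these data known.

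Among the basal keratins, Krt5, the type II chain of dividing keratinocytes, was at 7.55 and 8.34 in DIO 1 and DIO 2, against 6.73 in control 1 and 11.89 in control 2. Krt15, a type I chain of basal cells and of hair follicle stem cells, was at 8.89 and 9.10 in the DIO arrays, against 7.84 and 12.74 in the controls. For both genes the DIO arrays lay between the controls. Krt14, the usual partner of Krt5, was at 8.97 and 8.75 in the DIO arrays, against 9.12 and 11.42 in the controls, and here both DIO arrays lay below both controls. Control 2 minus control 1 was 2.30 for Krt14 and 5.16 for Krt5. A second probe set of Krt14 gave the same pattern at 8.23 and 8.06 in the DIO arrays, against 8.45 and 10.71 in the controls, and a further, dim probe set stayed between 4.66 and 5.15. The differences between the groups were −1.36 ± 1.82 for Krt5, −1.30 ± 1.71 for Krt15 and −1.41 ± 0.81 for Krt14 (limma, adjusted p = 0.881, 0.879 and 0.761). For Krt14 the difference was −0.26 against control 1 alone and −2.55 against control 2 alone.

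Both members of the main suprabasal pair of the epidermis spread widely. Krt1, the type II chain of maturing skin cells, was at 7.79 and 9.89 in DIO 1 and DIO 2, against 5.77 in control 1 and 12.96 in control 2. Its partner Krt10 was at 9.48 and 11.22 in the DIO arrays, against 7.0 and 13.96 in the controls. Both DIO arrays lay between the controls for each gene, and DIO 2 lay above DIO 1 by 2.09 for Krt1 and 1.74 for Krt10. Krt1 in control 1 was close to that array's median of 5.63 over all probe sets, so the gap between the controls may be understated. The same limit applies to Krt6b, Krt75, Krt77, Krt23, Krt13, Krt17 and Krt4, which lay below that median in control 1. Krt77, a type II chain related to Krt1, was at 4.95 and 5.32 in the DIO arrays, against 4.37 and 8.55 in the controls. Krt2, a late type II chain of the upper epidermis, stayed between 3.17 and 3.50 on all arrays. The group differences of −0.52 ± 2.6 for Krt1 and −0.13 ± 2.49 for Krt10 were a small part of the spread within the controls, whose SDs were 5.08 for Krt1 and 4.92 for Krt10 (n = 2).

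The wound and appendage keratins, which skin makes after injury and in hair follicles, were also highest in control 2 for 5 of 5 measured members. This held for 3800 of all 18193 genes. Krt6b had the widest range of the family, at 6.92 and 8.49 in DIO 1 and DIO 2, against 4.62 in control 1 and 12.47 in control 2. The closely related Krt6a was at 9.48 and 10.10 in the DIO arrays, against 7.37 and 13.21 in the controls, and its other 2 probe sets gave the same order. Krt6a and Krt6b are near-identical genes, as are parts of Krt14, Krt16 and Krt17, so probes may not keep them fully apart. Krt17 was at 5.29 and 5.90 in the DIO arrays, against 5.18 and 10.04 in the controls, while its dim second probe set lay between 3.74 and 4.42. A probe set assigned to both Krt14 and Krt17 was left out of the family and read 5.44 and 5.47 in the DIO arrays, against 5.18 and 5.22 in the controls. Krt75, of the companion layer of the hair follicle, was at 5.02 on each DIO array, against 4.78 and 7.60 in the controls.

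Krt16 departed from this order, since both DIO arrays lay below both controls. It was at 6.81 and 7.52 in DIO 1 and DIO 2, against 8.36 in control 1 and 11.43 in control 2. Its difference of −2.73 ± 1.10 was the largest in either direction among the 48 keratins and did not pass (limma, adjusted p = 0.728, unadjusted p = 0.0657). Krt16 differed by −1.19 against control 1 alone and by −4.27 against control 2 alone, and its partner Krt6a by 2.41 and −3.43.

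Of the mucosal and corneal keratins, Krt4 and Krt13, the pair of inner mouth and oesophagus, followed the wide pattern. Krt13 was at 6.33 and 7.10 in DIO 1 and DIO 2, against 5.09 in control 1 and 11.06 in control 2. Krt4 was at 5.84 and 6.33 in the DIO arrays, against 5.47 and 9.60 in the controls, and Krt78 was at 6.38 and 7.07 in the DIO arrays, against 5.77 and 9.69 in the controls. For these 3 genes the DIO arrays lay between the controls. The other probe sets of Krt13 and Krt4 also had control 2 as the highest array. The remaining 4 members were dim and varied little: Krt76 of the palate, Krt79, Krt24 and the corneal Krt12 had ranges of 0.53, 0.68, 0.19 and 0.56.

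**Figure D2:**
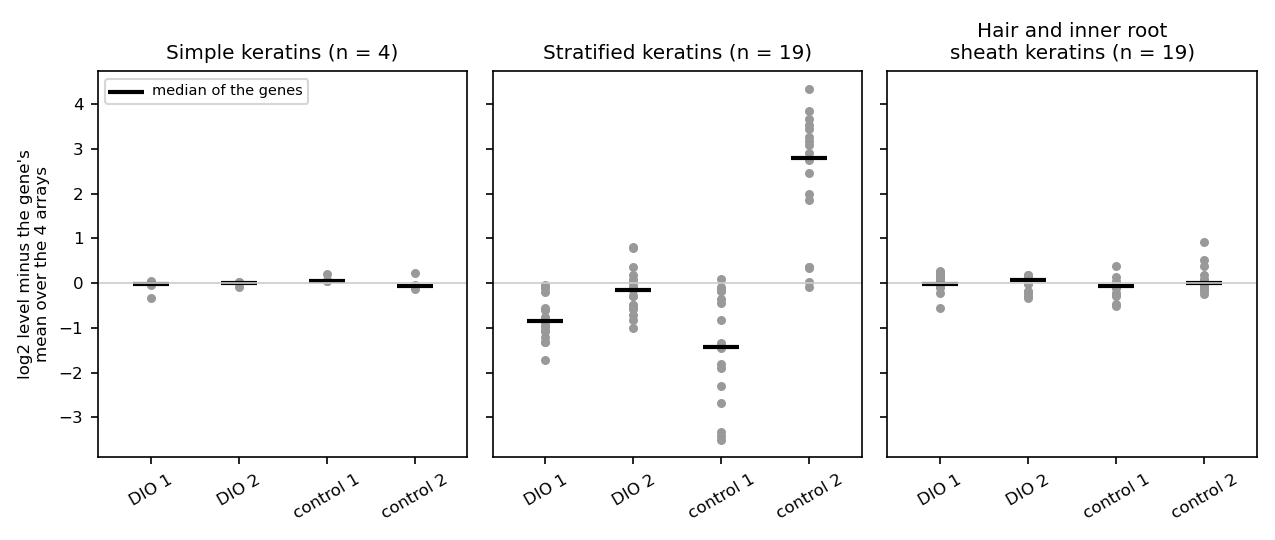
Log2 level minus the gene's own mean over the 4 arrays (y axis) for each simple, stratified, and hair or inner root sheath keratin (grey points) on DIO 1, DIO 2, control 1 and control 2 (x axis), with the median of the genes as a black bar. The stratified keratins are high in control 2 and low in control 1, with a median of 4.13 for control 2 minus control 1, and the other classes stay near 0.

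Comparison of the chain types gave no clear split. Over all members, the median difference between DIO and control was −0.07 for the 25 type I keratins, of which 16 had a lower DIO mean, and −0.04 for the 23 type II keratins, of which 14 did. The median over all genes tested was 0.02. Among the stratified keratins, the median difference was −1.33 for 8 type I members and −0.84 for 11 type II members. Control 1 was the lowest array for 11 of 11 type II members and for 4 of 8 type I members, against 3869 of all 18193 genes. The type I members with another lowest array were Krt14, Krt16, Krt12 and Krt24. Some of these members were dim and varied little. The ranges were 0.56 and 0.19 for Krt12 and Krt24, and 0.33, 0.53 and 0.68 for the type II Krt2, Krt76 and Krt79. Partners nevertheless differed in how far they spread: control 2 minus control 1 was 6.96 for Krt10 and 7.19 for Krt1, 5.98 for Krt13 and 4.13 for Krt4, but 2.30 for Krt14 beside 5.16 for Krt5, and 3.07 for Krt16 beside 5.84 for Krt6a. For the simple pair it was −0.20 for Krt18 and −0.09 for Krt8. These differences between partners were not tested.

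Among other keratins of single-layered epithelia and those outside the classes above, Krt23 and Krt80 shared the high value in control 2. Krt23, a type I keratin, was at 5.39 and 6.47 in DIO 1 and DIO 2, against 4.46 and 9.09 in control 1 and control 2. Krt80, a type II keratin, was at 7.90 and 8.01 in the DIO arrays, against 8.01 and 9.62 in the controls, and differed by −0.06 from control 1 alone and by −1.66 from control 2 alone. Krt20 of the intestine, Krt42 and Krt222 had ranges of 0.43, 0.21 and 0.14. A second, dimmer probe set of Krt42 had a range of 1.05, with control 1 highest at 5.62 and control 2 lowest at 4.57. Krt88, which was put in no class, was at 6.97 and 7.12 in the DIO arrays, against 6.80 and 6.73 in the controls.

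The 19 hair shaft and inner root sheath keratins were dim and varied little, with mean levels of 4.87 and 4.86 in DIO 1 and DIO 2, against 4.78 and 4.94 in control 1 and control 2. Their median difference between the groups was 0.04, with 10 higher and 9 lower DIO means. Krt25, a type I keratin of the inner root sheath, had the smallest p of the family. It was at 5.44 and 5.67 in the DIO arrays, against 6.38 and 6.52 in the controls, a difference of −0.90 ± 0.15 with an interval from −1.31 to −0.48 (limma, adjusted p = 0.728, unadjusted p = 0.00368). The difference of Krt25 was −0.82 against control 1 alone and −0.97 against control 2 alone. Of the other sheath keratins, which did not pass either, Krt71 was at 5.56 and 5.49 in the DIO arrays, against 5.06 and 5.16 in the controls (limma, adjusted p = 0.728, unadjusted p = 0.0289). Krt28 differed by 0.31 ± 0.14 and Krt27 by 0.18 ± 0.12, with intervals that included 0, and Krt72 and Krt73 differed by 0.00 ± 0.13 and 0.04 ± 0.15. Of the hair shaft keratins, Krt83 differed by 0.35 ± 0.15, Krt81 by 0.25 ± 0.13 and Krt33a by −0.31 ± 0.16, and Krt35 was at 3.70 on each DIO array, against 3.46 and 4.85 in the controls. Krt35 differed by 0.24 from control 1 alone and by −1.15 from control 2 alone. The shaft keratins Krt32, Krt33b and Krt84 differed by 0.11 ± 0.37, −0.07 ± 0.17 and −0.04 ± 0.12. Over the 19 genes the range between arrays ran between 0.09 and 1.39. Since detection calls were not used here, it is unknown how far these dim genes lie above background.

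Over the whole family, 0 of 48 keratins passed the adjusted threshold in the comparison of all 4 arrays (limma), as did 0 of 18193 genes (0%). At an unadjusted p below 0.05 there were 3 keratins, Krt25, Krt71 and Krt19, against 6.58% of all genes. Groups that did not overlap, with the DIO arrays on top, were seen in 9 keratins, against 21.4% of all genes, and with the DIO arrays at the bottom in 6, against 17% of all genes. The 9 were Krt26, Krt27, Krt28, Krt71, Krt81, Krt83, Krt86, Krt42 and Krt88, and the 6 were Krt14, Krt16, Krt19, Krt25, Krt33a and Krt82. As shares of the 48 these were 18.8% and 12.5%, neither above the background. The DIO mean was the higher one for 18 keratins and the lower one for 30. These counts were 23 and 25 after each array was centred on its own median, but 15 and 33 under quantile normalization. Among the 22 keratins kept by a filter on dim genes they were 5 and 17. Krt26, Krt86 and Krt82 differed by 0.14, 0.16 and −0.06. An exact permutation test of 2 arrays against 2 could not give a 2-sided p under 0.333 for any of them.

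The direction of the stratified keratins turned with the control that was used. With all arrays, 17 of the 19 had a lower DIO mean, with a median difference of −1.0. Against control 2 alone, 17 of 19 were lower, with a median of −3.43, and against control 1 alone 15 of 19 were higher, with a median of 0.62. Without control 1, 13 keratins fell in DIO at the adjusted threshold, against 2.47% of all genes, and the lone control array was there assumed to vary like the DIO arrays. They were the stratified Krt5, Krt14, Krt15, Krt4, Krt13, Krt78, Krt77, Krt6a, Krt16, Krt17 and Krt75, together with Krt80 and Krt35. The difference was −3.94 for Krt5 (limma, adjusted p = 0.0276) and −4.44 for Krt17 (adjusted p = 0.024). Krt1 and Krt10 did not pass (adjusted p = 0.125 and 0.114), and their DIO arrays differed from each other by 2.09 and 1.74. Without control 2, 0 of 48 keratins passed, as did 0% of all genes. At an unadjusted p below 0.05 there were then 14, against 12.4% of all genes. Krt10 was then higher in DIO by 3.35, Krt6b by 3.09, Krt1 by 3.07 and Krt6a by 2.41 (limma, adjusted p = 0.387 for each).

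**Figure D3:**
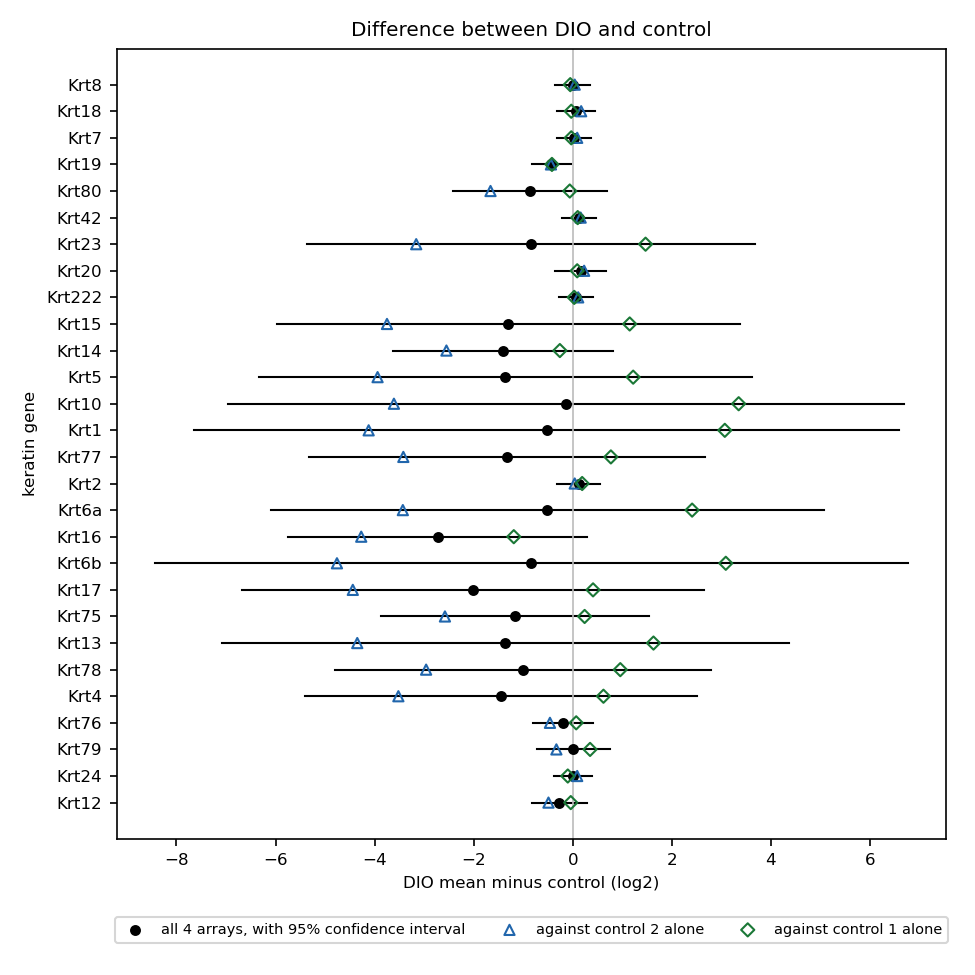
DIO mean minus control (x axis, log2) for the simple, other and stratified keratins (y axis): black points with bars are the comparison of all 4 arrays with its 95% confidence interval, triangles the difference from control 2 alone and diamonds that from control 1 alone. For Krt5, Krt10 and most stratified keratins the triangles and diamonds fall on opposite sides of 0. Those of Krt19, whose controls were nearly equal, lie at −0.44 and −0.42.

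Neighbouring keratin genes could differ widely in their spread. In the RefSeq table the type I genes lie in a row on chromosome 11 and the type II genes on chromosome 15, where the type I gene Krt18 stands at the end of the row beside Krt8. Krt19 lies next to Krt15, whose range was 4.90, and Krt9, which was not analysed here, separates it from Krt14. The range of Krt19 was 0.56. Likewise Krt78, with a range of 3.92, neighbours Krt8, with a range of 0.09. Krt5, with a range of 5.16, neighbours Krt71 with 0.50, and Krt1, with 7.19, neighbours Krt2 with 0.33. Genes of wide range also stood together, as Krt75, Krt6b, Krt6a and Krt5 did on chromosome 15.

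**Figure D4:**
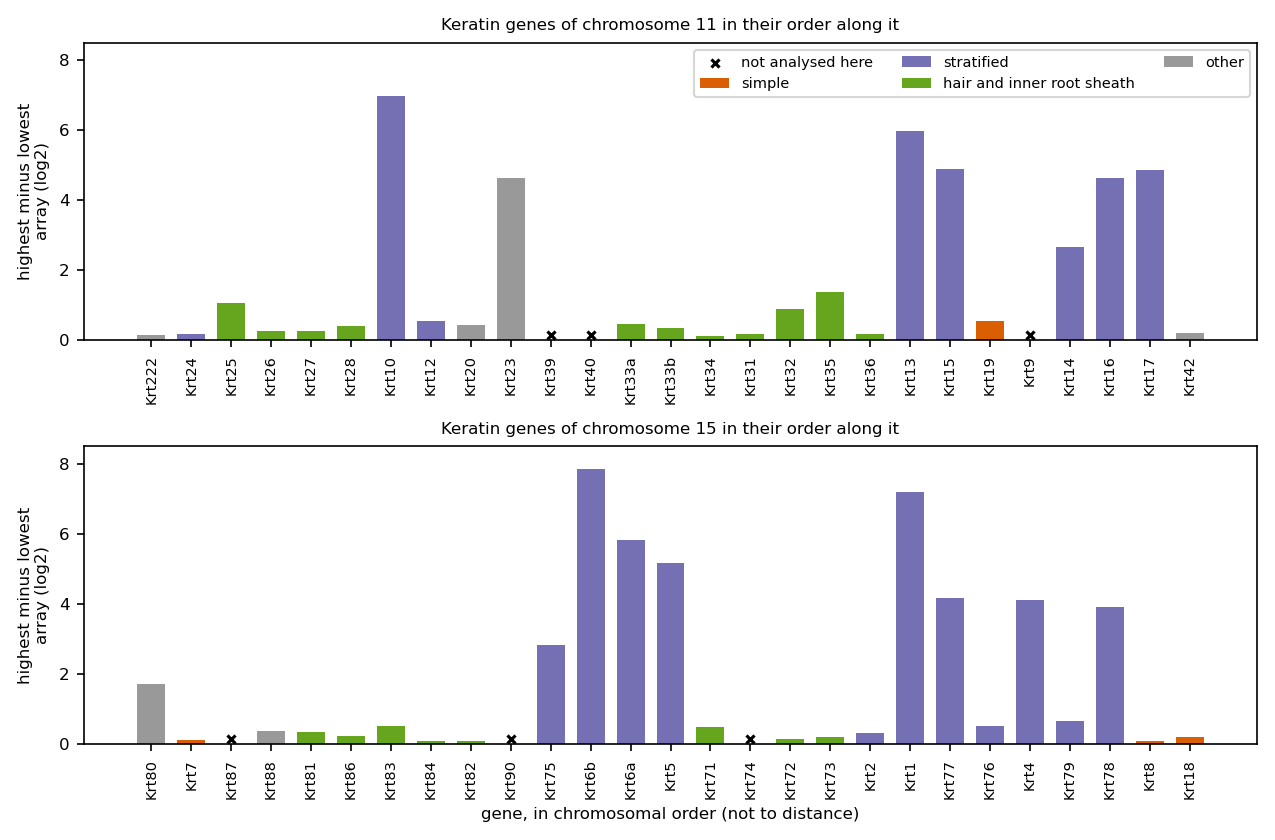
Highest minus lowest array (y axis, log2) for the keratin genes of chromosome 11 (top) and chromosome 15 (bottom), in their order along the chromosome and not to distance. Bars are coloured by class and crosses mark genes not analysed here, and bars near 0 for simple and hair keratins stand directly beside tall bars of stratified keratins, as for Krt19 beside Krt15.

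Genes whose products hold keratin filaments at cell contacts varied along with the stratified keratins in part. Among 14 measured desmosome and linker genes, control 2 was the highest array for 11, against 3800 of all 18193 genes. The mean level was 9.14 and 9.45 in DIO 1 and DIO 2, against 8.93 and 10.74 in control 1 and control 2. Dsp, the desmoplakin that ties keratins to desmosomes, was at 12.17 and 12.35 in the DIO arrays, against 11.97 and 13.29 in the controls. Perp, a desmosome membrane protein, was at 11.56 and 11.67 in the DIO arrays, against 11.03 and 12.90 in the controls. Dsg2, the desmosomal cadherin of simple epithelia, varied less, at 11.75 and 11.78 in the DIO arrays, against 11.56 and 12 in the controls. In the comparison of the groups 3 of the 14 had a higher and 11 a lower DIO mean, and 0 passed (limma). An unadjusted limma p below 0.05 was seen in 0 of the 14, against 6.58% of all genes.

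Of 14 transcription factors of keratin genes or of epithelial differentiation, 4 had a higher and 10 a lower DIO mean. Their median difference was −0.35, and 0 passed (limma). An unadjusted limma p below 0.05 was seen in 2 of the 14, against 6.58% of all genes. Trp63, the master regulator of stratified epithelia, was at 4.55 and 4.84 in DIO 1 and DIO 2, against 4.15 and 8.37 in control 1 and control 2. As for Krt5, control 2 was highest. The other arrays lay below the array medians of 5.61 to 5.65, so their order for Trp63 is unsure. Tfap2c, an AP-2 factor, was at 10.53 and 11.09 in the DIO arrays, against 10.11 and 10.10 in the controls, a difference of 0.70 ± 0.23 (limma, adjusted p = 0.728). Cebpb differed by −0.26 ± 0.16 and Klf5 by −0.49 ± 0.28. Ovol1, a factor of epidermal differentiation that was named after its values were seen, had the smallest p of the list, at 6.64 and 6.43 in the DIO arrays, against 7.80 and 8.51 in the controls, a difference of −1.62 ± 0.28 (adjusted p = 0.728, unadjusted p = 0.00397).

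Other intermediate filament genes spread less than the stratified keratins. Their 16 members had control 2 as the highest array in 3 cases, against 3800 of all 18193 genes. The median range was 0.61, and 1 member had a range of 2 or more. Vim, the vimentin gene, was at 10.33 and 10.02 in DIO 1 and DIO 2, against 10.29 and 10.61 in control 1 and control 2, a difference of −0.27 ± 0.20. The nuclear lamin gene Lmna was at 10.17 and 10.38 in the DIO arrays, against 10.71 and 10.79 in the controls, a difference of −0.47 ± 0.14, and Lmnb1 differed by 0.21 ± 0.22. In this list 8 members were higher and 8 lower in DIO, and 0 passed (limma). An unadjusted limma p below 0.05 was seen in 2 of the 16, against 6.58% of all genes.

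Markers of other cell types were set beside the keratins. Most simple epithelial markers that are not keratins varied little, with a median range of 0.36. Their means were 10.96 and 10.94 in DIO 1 and DIO 2, against 10.91 and 10.98 in control 1 and control 2. The widest range was 1.69 for Esrp1, at 9.15 and 8.94 in the DIO arrays, against 9.64 and 10.63 in the controls. The cadherin Cdh1 was at 12.05 and 12.31 in the DIO arrays, against 11.53 and 12.06 in the controls, and the claudins Cldn4 and Cldn7 differed by −0.07 ± 0.14 and 0.11 ± 0.17. The epidermal markers varied like the stratified keratins, as given above. The 3 brightest of them were Dmkn, at 10.53 and 11.29 in the DIO arrays, against 10.37 and 13.63 in the controls, Sbsn with a difference of −0.11 ± 0.32, and Perp. Of the epidermal list 4 genes, Trp63, Perp, Dsc3 and Dsg1a, also stood among the regulators or linkers.

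Pluripotency markers were mostly lower where the stratified keratins were higher within a group. Of the 19 stratified keratins, 17 were higher in DIO 2 than in DIO 1 and 18 were higher in control 2 than in control 1. Over all 18193 genes these counts were 8746 and 6843, so most genes were lower in control 2 than in control 1. Of 12 pluripotency markers, 11 were lower in DIO 2 than in DIO 1 and 11 were lower in control 2 than in control 1. The exception in both groups was Klf4, which was also listed among the regulators of keratin genes. The sizes did not go together. The median of DIO 2 minus DIO 1 was 0.49 for the stratified keratins and −1 for the pluripotency markers. For control 2 minus control 1 it was 4.13 and −0.92. The 3 brightest were Dppa5a and Sall4, with differences of 0.42 ± 0.51 and 0.36 ± 0.40, and Pou5f1. Pou5f1, the pluripotency factor also called Oct4, was at 11.79 and 10.33 in DIO 1 and DIO 2, against 11.16 and 9.96 in control 1 and control 2. Trophoblast markers averaged 8.46 and 8.74 in the DIO arrays, against 8.45 and 8.06 in the controls, and the brightest were Tfap2c, Peg10 with a difference of −0.63 ± 0.25 and Gata3 with −0.26 ± 0.21. Yolk sac endoderm markers averaged 6.26 and 6.58 in the DIO arrays, against 5.79 and 7.43 in the controls, and control 2 was the highest array for 7 of 12. Of these markers, Ttr was at 7.38 and 8.82 in the DIO arrays, against 5.12 and 9.55 in the controls, and Dab2 and Gata6 differed by −0.25 ± 0.41 and −0.84 ± 0.61. Afp, with the widest range of this list, was at 5.83 and 5.72 in the DIO arrays, against 4.29 and 9.62 in the controls. Fibroblast and smooth muscle markers averaged 6.53 and 6.71 in the DIO arrays, against 6.26 and 6.97 in the controls, with differences of 0.91 ± 0.38 for Acta2, 0.94 ± 0.27 for Tagln and −1.0 ± 1.04 for Col3a1. Acta2 differed by 0.39 from control 1 alone, by 1.44 from control 2 alone and by 0.29 when its probe sets were averaged, and Tagln by 0.60 from control 1 alone and by 1.28 from control 2 alone. Of the endothelial markers, Pecam1 was at 7.20 and 6.05 in DIO 1 and DIO 2, against 7.34 and 6.83 in the controls, and Cdh5 was at 8.48 and 9.34 in the DIO arrays, against 8.37 and 8.87 in the controls. Esam differed by 0.14 ± 0.19 and Egfl7 by 0.33 ± 0.23. In these lists 0 genes passed (limma, adjusted p = 0.728 or above). At an unadjusted limma p below 0.05 there were 2 of 12 simple epithelial, 1 of 9 trophoblast and 1 of 12 fibroblast and smooth muscle markers. The other marker lists had 0, and the share over all genes was 6.58%. The part of these markers in the keratin values was not tested.

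**Figure D5:**
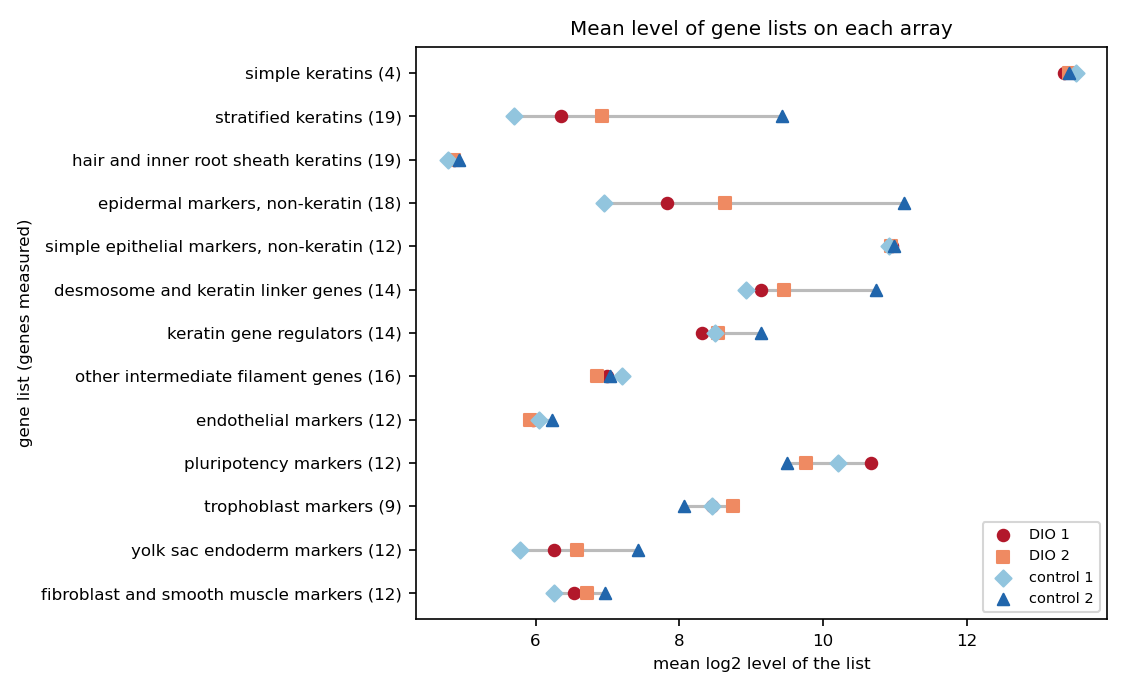
Mean log2 level (x axis) of each gene list (y axis, with the number of genes measured) on DIO 1, DIO 2, control 1 and control 2. The stratified keratins and the epidermal markers have control 1 lowest and control 2 highest, at 5.70 and 9.42 for the keratins. The desmosome, yolk sac endoderm and fibroblast lists have the same lowest and highest arrays, over a narrower range. The simple keratins, the simple epithelial markers and the hair keratins stay together.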

How the data were processed

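Total RNA of 4 cultures, 1 per mouse, was isolated with the Qiagen RNeasy Mini Plus kit, labelled with biotin by the Affymetrix 3'IVT Express procedure and hybridized to 1-colour arrays, per the labels' protocols. The deposited table holds log2 values that the authors had already processed, for 45101 probe sets. How the background was corrected and the arrays were normalized was not given in the sources used here. Array medians lay between 5.61 and 5.65. As arrays hold no read depth, their number limits the precision.

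Of the probe sets, 34945 had a single gene symbol in the platform annotation, 932 had several and 9160 were not listed. Another 64 were the manufacturer's controls. The probe set with the highest mean stood for each of 18193 genes, which left 13 other keratin probe sets as checks. All 48 keratin symbols matched RefSeq (GRCm38.p6).

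DIO minus control was fitted with limma 3.58.1 in R 4.3.3 (lmFit, eBayes, 2-sided, no covariates) over all genes on all 4 arrays. P-values were adjusted by the Benjamini-Hochberg method over all genes, with a threshold of 0.05, and the code was tested on simulated data. Classes and marker lists were described by medians and counts. Alternatives were quantile normalization, centring, a filter on dim genes, averaged or separate probe sets, trended and robust eBayes, the replicate block, and leaving out each array.

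Named genes were Krt7, Krt8, Krt18 and Krt19. Of each other class they were those past the threshold, up to 5 of the brightest, and up to 3 of the largest differences among members whose groups did not overlap. Of each marker list they were those past the threshold and up to 3 of the brightest, with Pecam1, Cdh5, Vim, Trp63 and Pou5f1 always named. Krt12, Krt24, Krt26, Krt35, Krt82, Krt86, Klf4, Dsc3, Dsg1a, Ovol1, Afp and Esrp1 were named after their values were seen. The members and lists were chosen with earlier results of these data known.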

Additional observations from a re-analysis of the deposited data

How the results depend on the processing

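In the fit of all arrays 0 keratins passed under quantile normalization, centring, the dim filter, averaged probe sets, trended and robust eBayes, and the replicate block. With the replicate block 0 of 18193 genes passed and 982 had an unadjusted limma p below 0.05. Each replicate number has 1 array of each group, so the block could not change the differences. The median of the stratified keratins therefore stayed at −1.0. The replicate numbers come from the sample titles, and no label says that they mark a shared batch. The deviations of same-numbered arrays correlated at 0.333 over all genes and at 0.82 over the 48 keratins, with only 2 pairs. Differences near 0 changed sign: under quantile normalization Krt72 was 0.01, Krt73 and Krt79 −0.02 and Krt7 0.00; after centring Krt72 and Krt8 were 0.02 and Dsg2 0.01; with averaged probe sets Krt222 was 0.00 and Krt8 0.02. The dim filter kept 22 keratins, so the medians covered fewer genes: 0.25 for hair shaft, −0.90 for inner root sheath, −0.32 for both together, −1.36 for mucosal, −0.90 for type I and −0.84 for all keratins. With every probe set fitted the mucosal median was −0.98.

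Leaving out single arrays changed many signs. The count of keratins past the threshold ran between 0 and 13, the highest without control 1, when a lone control was assumed to vary like DIO. Differences ran between these values: Krt5 −3.94 and 1.22, Krt15 −3.75 and 1.15, Krt1 −4.12 and 3.07, Krt10 −3.61 and 3.35, Krt77 −3.42 and 0.77, Krt2 −0.02 and 0.25, Krt6a −3.43 and 2.41, Krt6b −4.76 and 3.09, Krt17 −4.44 and 0.41, Krt75 −2.58 and 0.24. For mucosal and other keratins they were Krt13 −4.35 and 1.63, Krt4 −3.52 and 0.62, Krt78 −2.96 and 0.96, Krt76 −0.46 and 0.07, Krt79 −0.33 and 0.35, Krt23 −3.16 and 1.47, Krt20 −0.04 and 0.36. For simple and hair keratins they were Krt7 −0.03 and 0.09, Krt8 −0.05 and 0.04, Krt18 −0.03 and 0.17, Krt32 −0.34 and 0.56, Krt33b −0.24 and 0.11, Krt72 −0.08 and 0.07, Krt73 −0.05 and 0.13. For other genes they were Dsp −1.03 and 0.29, Perp −1.29 and 0.58, Dsg2 −0.23 and 0.20, Trp63 −3.67 and 0.54, Sbsn −0.49 and 0.28, Dmkn −2.73 and 0.54, Cldn4 −0.16 and 0.03, Cldn7 −0.06 and 0.28, Esam −0.03 and 0.31, Cdh5 −0.14 and 0.72, Pecam1 −1.03 and 0.11, Col3a1 −2.38 and 0.39, Dppa5a −0.24 and 1.08, Sall4 −0.15 and 0.86, Pou5f1 −0.23 and 1.23, Dab2 −0.80 and 0.31, Ttr −1.45 and 2.98. Krt14 kept its sign, at −2.55 without control 1 and −0.26 without control 2. So did Krt16 at −4.27 and −1.19, Krt80 at −1.66 and −0.06, and Acta2 at 1.44 and 0.39. Medians ran between −3.75 and 1.15 for basal, −3.51 and 1.92 for suprabasal, −0.49 and 0.35 for mucosal, −3.42 and 0.77 for stratified type II, −0.04 and 0.06 for simple and 0.03 and 0.15 for inner root sheath keratins. They ran between −3.23 and 0.86 for epidermal, −0.10 and 0.95 for pluripotency, 0.02 and 0.11 for simple epithelial and −0.87 and 0.38 for yolk sac markers. For the changes under other scalings and averaged or separate probe sets, the cause was not tested. With 2 arrays per group, 0 of 18193 genes passed in the fit of all arrays. Differences larger than the spread of the controls did not pass either, such as that of Krt25 (−0.90, with a control SD of 0.10).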
